A study of Cavia porcellus with 72 samples.

Results

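The genes described are 10 markers of meningeal fibroblasts that are not collagens, IGF2, DCN, LUM, OGN, SLC13A4, SLC22A6, CRABP2, ALDH1A2, SLC22A2 and SERPINF1. They were taken by symbol from the 3 deposited count tables, which list 11651 genes in F1, 11716 in F2 and 11663 in F3. All 10 are in every table and all 10 had enough reads to be tested in every generation. The list was written as cell type markers, but it was selected on measured values too, because results of these libraries were known. SERPINF1 had been seen to be lower in F1, and ALDH1A2 and SLC22A2 to be lower in F1 and higher in F3. The sGC effects within generations, and the differences between those effects, are therefore given as a description without p-values.

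Hippocampal RNA came from female Dunkin-Hartley guinea pigs on postnatal day 40. In the sGC group the pregnant F0 animals had been given the synthetic glucocorticoid betamethasone (label "Beta"), and in the Veh group saline (label "Control"). F1 offspring were exposed before birth. F2 and F3 descend through the paternal line, from F1 and F2 males mated with females from outside the experiment, and those later pregnancies received neither injection. Libraries number 6 Veh and 5 sGC in F1, 6 and 6 in F2, and 6 and 7 in F3, 36 in all, each from 1 animal, and the animals of a generation came from separate mothers. RNA was taken from powdered whole right hippocampus with no sorting of cells, so any meninges, vessels or choroid plexus left on the tissue entered the sample. In such bulk samples, fewer cells of a type and less RNA per cell cannot be told apart.

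Meningeal fibroblasts build the membranes that wrap the brain, and related fibroblasts line its larger vessels. They lay down collagen together with small leucine-rich proteoglycans, secrete growth factors into the cerebrospinal fluid, make retinoic acid for the developing cortex, and carry transporters that move organic ions and sulphate across the arachnoid barrier. None of the 10 genes is found in these cells alone: IGF2 is also made by the choroid plexus, SERPINF1 by other support cells, and DCN, LUM and OGN by fibroblasts throughout the body.

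Reads per library lay between 13507449 and 19767033. Library numbers 32 to 36 in the labels belong to sGC animals only (F1 sGC replicates 4 and 5, F2 sGC replicate 6 and F3 sGC replicates 5 and 6) and do not follow on from the other numbers of their generation, so results are also given without them. The F2 libraries stood apart over the whole transcriptome: between the Veh groups of F1 and F2, 5311 of 11309 genes passed an adjusted p of 0.05 in edgeR's quasi-likelihood test, against 2 genes between F1 and F3. Generation and the handling of the libraries of a generation cannot be told apart. No pair of libraries of 1 group agreed within sampling noise (chi-square per degree of freedom 2.15 to 29.5). F1 sGC replicate 4 stood apart over the whole transcriptome, at 17.8 to 29.5 against the other F1 sGC libraries, where no other pair within a group of F1 was above 11.6, and the F1 counts of calls are given with and without it. In F3 sGC, replicate 6 was at 7.42 to 16.8 against the others. Replicate 5 was at 2.15 to 3.29 against replicates 1, 2, 3, 4 and 7, which were at 4.22 to 8.13 among themselves. Why replicate 5 lay so close to them was not tested. Without replicate 5, 2.54% of all genes were called in F3, against 5.04% with it, and none of the 10 in either fit.

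In F1, all 10 genes had a lower mean in sGC than in Veh animals. Their median log2 fold change was -1.03, where the median of all 11377 genes tested was -0.0055. The sum of the 10 levels in a library, in reads per 1000000 counted (CPM, scaled by TMM), was 128.3 at the lowest, 172.8 at the median and 296 at the highest in Veh. The 5 sGC libraries had sums of 113, 79.3, 93.4, 134 and 100.4 CPM. Only the highest sGC library, replicate 4, reached into the range of the Veh libraries. The group means were 193 ± 67.1 (SD, n = 6) in Veh and 104 ± 20.7 CPM (SD, n = 5) in sGC, a ratio of 0.538 of sGC to Veh. Without IGF2 the ratio was 0.615. The highest Veh sums were those of replicates 5 and 2, at 296 and 253 CPM.

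Decorin (DCN), lumican (LUM) and osteoglycin (OGN) are small leucine-rich proteoglycans, which bind collagen and set the width and spacing of its fibrils. DCN had 32.2 CPM in the lowest, 42.2 in the median and 62.4 in the highest Veh library of F1. In the sGC libraries it had 27.4, 10.2, 20.4, 32.4 and 20.8 CPM. The groups overlapped by 1 library on each side, sGC replicate 4 lying just above Veh replicate 4. Its log2 fold change was -0.995 (SE 0.239). LUM had 8.72, 10.1 and 11.7 CPM in the lowest, median and highest Veh library, and 6.55, 6.83, 7.76, 8.59 and 6.34 CPM in the sGC libraries. Every sGC library was below every Veh library, and the log2 fold change of -0.50 (SE 0.1004) had the second smallest error of the 10 genes. OGN had 4.61, 6.74 and 12.6 CPM in the lowest, median and highest Veh library and 3.49, 1.92, 2.57, 6.09 and 3.54 CPM in the sGC libraries. Without sGC replicate 4, which lay above Veh replicate 3, the groups of OGN do not overlap. Its log2 fold change was -1.11 (SE 0.286).

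Of the secreted factors, IGF2 is an insulin-like growth factor that acts on growth and survival of cells, and SERPINF1 encodes pigment epithelium-derived factor, a protein that restrains the growth of vessels. IGF2 had the largest difference of the 10 genes. It ranged from 27.7 over a median of 47.5 to 129 CPM in the Veh libraries of F1, and was 28.3, 15.6, 18.5, 34.6 and 23.4 CPM in the sGC libraries. Veh replicates 5 (129 CPM) and 2 (88.8 CPM) stood far above the others, and sGC replicates 1 and 4 lay above the lowest Veh library. The log2 fold change was -1.42 (SE 0.357), and -0.76 without those 2 Veh libraries. SERPINF1 had 16.8, 19.1 and 24.2 CPM in the lowest, median and highest Veh library and 13.1, 14.6, 14.4, 13.4 and 14.9 CPM in the sGC libraries. The 5 sGC libraries lay within a narrow band below every Veh library. The log2 fold change of -0.47 (SE 0.0858) was among the smaller ones and the one with the smallest error.

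ALDH1A2 makes retinoic acid from retinal, and CRABP2 carries retinoic acid to its nuclear receptors. ALDH1A2 is a gene of few reads here, from 8 to 65 per library in F1. It had 0.833, 1.91 and 3.27 CPM in the lowest, median and highest Veh library, and 0.795, 0.427, 0.765, 1.76 and 0.801 CPM in the sGC libraries. All sGC libraries but replicate 4 were below every Veh library while replicate 4 stood apart from the other sGC libraries. The log2 fold change was -1.12 (SE 0.354). For CRABP2 the Veh libraries of F1 gave 2.66, 3.98 and 8.25 CPM (lowest, median and highest), and the sGC libraries 2.998, 1.01, 1.53, 3.32 and 2.07 CPM. sGC replicates 1 and 4 lay within the Veh range and the other 3 below it. Its log2 fold change was -1.06 (SE 0.331).

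SLC13A4 takes up sulphate, SLC22A6 (OAT1) organic anions, and SLC22A2 (OCT2) organic cations. SLC22A2 had the fewest reads of the 10 genes, 3 to 35 per library in F1. It had 0.4998, 1.09 and 1.76 CPM in the lowest, median and highest Veh library, and 0.428, 0.160, 0.328, 1.01 and 0.334 CPM in the sGC libraries. Replicate 4 was the only sGC library inside the Veh range, and the log2 fold change was -1.32 (SE 0.400). SLC13A4 had 23.2, 31.9 and 64.2 CPM in the lowest, median and highest Veh library and 26.7, 23.9, 23.3, 27.5 and 22.4 CPM in the sGC libraries. The groups overlapped, the sGC libraries being close together at the low end of the Veh range. Its log2 fold change of -0.54 (SE 0.209) became -0.20 without Veh replicates 2 and 5. SLC22A6 overlapped most: its Veh libraries had 2.998, 5.92 and 8.55 CPM (lowest, median and highest) and its sGC libraries 2.88, 4.64, 3.93, 5.41 and 5.94 CPM. At -0.38 (SE 0.253) it had the smallest difference, and it was the 1 gene for which an sGC library of F1 (replicate 5) lay above the Veh mean.

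**Figure D1:**
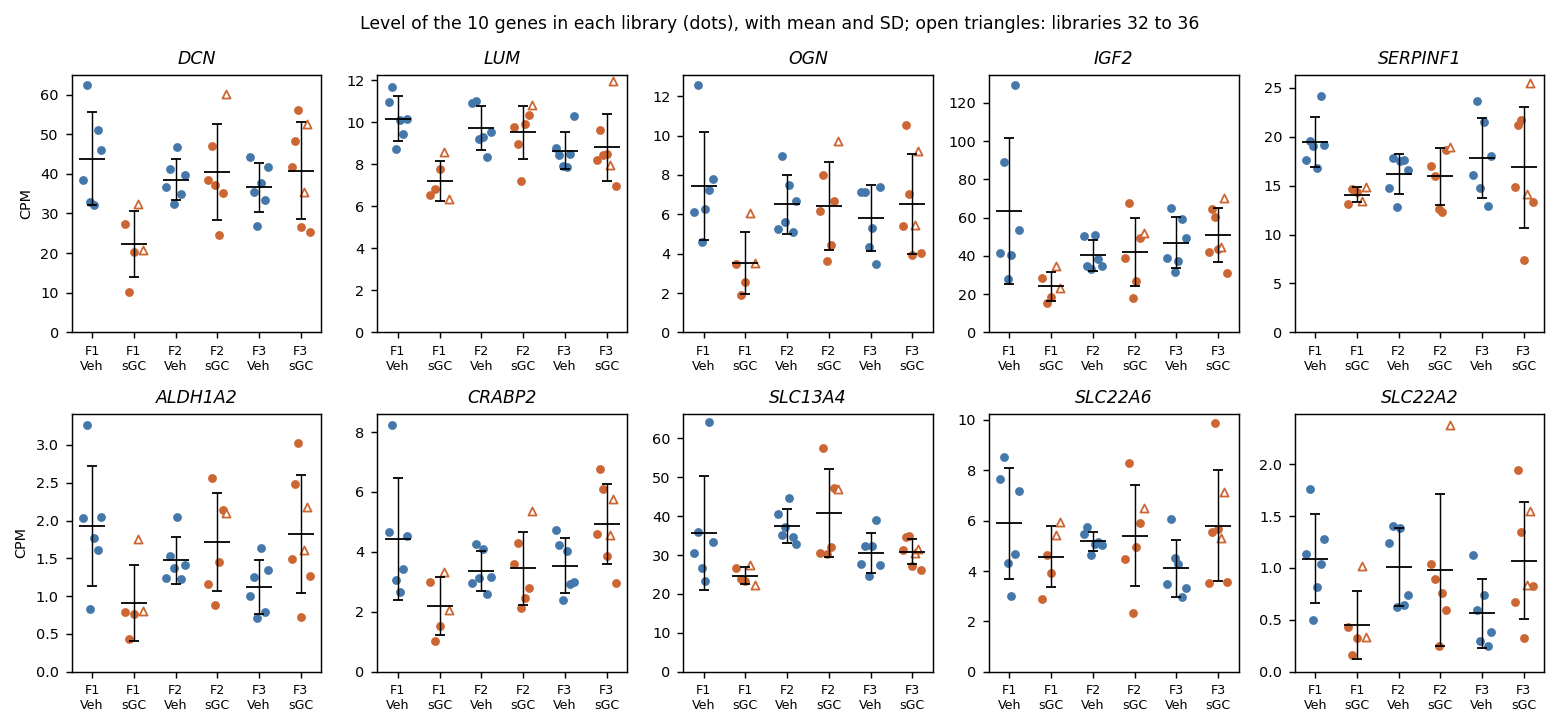
Level (CPM, linear axis from 0, each gene with its own scale) of the 10 genes in the 36 libraries by generation and group. Points are libraries, open triangles mark libraries 32 to 36, and black bars give the mean and 1 SD. In F1 the sGC mean is lower for every gene, with broad overlap for SLC22A6 and with LUM and SERPINF1 fully below Veh, and in F2 and F3 the groups overlap for every gene.

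DCN, LUM and SERPINF1 passed an adjusted p of 0.05 in F1, all lower, in a comparison where 0.457% of all genes tested were called lower. LUM and SERPINF1 had no overlap between the groups, and 1.96% of all genes were lower with no overlap. Since the list was chosen with this contrast known, these counts describe the genes and are no evidence apart from it. The count moved with single libraries. Without sGC replicate 4, the highest sGC library for 8 of the 10 genes, 7 genes were called lower (0.578% of all genes) and 6 did not overlap (2.8%). Without Veh replicate 1, 2, 4 or 6 or sGC replicate 2 or 5 it was 1 gene in each case, SERPINF1, and without Veh replicate 3 the groups of 4 genes did not overlap. Without libraries 32 to 36 the median log2 fold change was -1.25, with 2 genes called lower (0.113% of all) and 6 without overlap (4.52%). Without both Veh replicates 2 and 5 the median was -0.76, no gene of the 10 and none of all genes was called lower (0.0%) by edgeR's quasi-likelihood test, where 1592 genes had an unadjusted p below 0.05, and LUM and SERPINF1 still did not overlap (2.98% of all genes). Each gene kept a lower mean in sGC in all of these fits.

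In F2, 6 of the 10 genes were higher and 4 lower in sGC, with a median log2 fold change of 0.0398. None of the 10, and none of all genes (0.0%), passed an adjusted p of 0.05 in edgeR's quasi-likelihood test, where 758 of all genes had an unadjusted p below 0.05. DESeq2 called 12 genes and the likelihood ratio test 6, none of them of the list. No gene of the 10 had groups without overlap (0.403% of all genes). The sums of the 10 levels were 140, 156 and 189 CPM (lowest, median and highest) in Veh and 115, 165 and 221 CPM in sGC. The sGC libraries thus lay on both sides of the Veh range. Without sGC replicate 6, library 33, the median log2 fold change was -0.08, with 2 genes higher and 8 lower.

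Among the proteoglycans of F2, DCN had 32.3, 38.1 and 46.8 CPM (lowest, median and highest) in Veh and 24.5, 37.7 and 60.2 in sGC. Its lowest and its highest library were both sGC libraries. LUM (8.32, 9.42 and 11.0 CPM in Veh, 7.23, 9.86 and 10.8 in sGC) and OGN (5.09, 6.12 and 8.94 in Veh, 3.64, 6.41 and 9.70 in sGC) had log2 fold changes of -0.03 (SE 0.0974) and -0.02 (SE 0.205). IGF2 went from 33.2 over 36.5 to 50.8 CPM in Veh and from 18.1 over 44.2 to 67.4 in sGC, with a log2 fold change of 0.06 (SE 0.231). Again the sGC libraries spanned the Veh range on both sides. SERPINF1 had 12.8, 17.1 and 17.8 CPM in Veh and 12.3, 16.5 and 18.98 in sGC (log2 fold change -0.02, SE 0.113).

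The retinoid genes gave the same picture in F2. ALDH1A2 had 1.22, 1.39 and 2.05 CPM in Veh and 0.880, 1.77 and 2.57 in sGC, with the largest log2 fold change of the 10 genes in this generation, 0.20 (SE 0.236). CRABP2 had 2.58, 3.15 and 4.27 CPM in Veh and 2.14, 3.21 and 5.37 in sGC. The sGC libraries of both genes spanned the whole Veh range. Of the transporters, SLC13A4 had 32.9, 36.2 and 44.5 CPM in Veh and 30.3, 39.6 and 57.6 in sGC. SLC22A6 was tight in Veh, at 4.62, 5.12 and 5.74 CPM, and spread from 2.32 over 5.44 to 8.28 CPM in sGC. SLC22A2 had 0.627, 0.991 and 1.401 CPM in Veh and 0.251, 0.826 and 2.37 in sGC, the top value being replicate 6.

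A wider spread among sGC animals than among Veh animals was common to the 10 genes in F2. The SD of the CPM was larger in sGC for all 10 genes, and so was the SD relative to the mean. For SLC22A6 the 2 SDs were 2.01 in sGC and 0.383 CPM in Veh (n = 6 each), for SLC13A4 11.4 and 4.35, and for IGF2 17.9 and 8.03. In F3 the SD was larger in sGC for 9 genes, all but SLC13A4, and in F1 it was smaller in sGC for all 10 genes. Relative to the mean, the spread was larger in sGC for 5 genes in F1 and 7 in F3. These differences in spread were not tested.

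In F3 the direction of the mean difference was opposite to that in F1 for 9 of the 10 genes: all but SERPINF1 were higher in sGC. The median log2 fold change of the 10 was 0.18, where that of all 11359 genes was 0.0048. For DCN, LUM, OGN, IGF2 and SLC13A4 the log2 fold change was smaller than its SE. None of the 10 passed an adjusted p of 0.05 in edgeR's quasi-likelihood test, where 5.04% of all genes did and 2397 genes had an unadjusted p below 0.05. In none did the groups separate without overlap (2.71% of all genes). The sums of the 10 levels were 118, 158 and 184 CPM (lowest, median and highest) in Veh and 116, 154 and 218 CPM in sGC. The medians were about level, and the 3 highest libraries of the generation were sGC replicates 6, 3 and 2. Without libraries 32 to 36 the median log2 fold change was 0.12, with 8 genes higher, and without sGC replicate 6 alone it was 0.09.

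Of the 10 genes, the retinoid genes and the organic ion transporters had the largest log2 fold changes in F3. ALDH1A2 and SLC22A2 had been listed with their higher F3 levels known, so their values here are not independent of that choice. Genes of the same pathways outside the list had F3 medians of 0.09 (retinoid genes) and 0.003 (transporters). SLC22A2 had 0.243, 0.488 and 1.12 CPM (lowest, median and highest) in Veh and 0.326, 0.834 and 1.95 in sGC, a log2 fold change of 0.95 (SE 0.387), with 6 of 7 sGC libraries above the Veh mean. ALDH1A2 had 0.716, 1.12 and 1.64 CPM in Veh and 0.717, 1.60 and 3.02 in sGC (0.70, SE 0.281), again with 6 of 7 above the Veh mean. CRABP2 had 2.39, 3.51 and 4.73 CPM in Veh and 2.98, 4.598 and 6.75 in sGC (0.49, SE 0.189), with the same count. For each of these 3 genes the lowest sGC library lay inside the Veh range. SLC22A6 had 2.97, 3.88 and 6.07 CPM in Veh and 3.52, 5.57 and 9.87 in sGC, a log2 fold change of 0.50 (SE 0.222). Reads were few for ALDH1A2 (11 to 46 per library in F3) and SLC22A2 (4 to 36).

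The log2 fold changes of the proteoglycans and secreted factors were smaller in F3. DCN had 26.96, 36.6 and 44.1 CPM in Veh and 25.4, 41.6 and 56.2 in sGC (log2 fold change 0.16, SE 0.169). OGN had 3.46, 6.203 and 7.41 CPM in Veh and 3.91, 5.45 and 10.5 in sGC (0.19, SE 0.235), and LUM 7.87, 8.47 and 10.3 in Veh and 6.97, 8.46 and 11.98 in sGC (0.04, SE 0.108). For OGN and LUM the sGC median lay at or below that of Veh, while the sGC mean was above that of Veh. IGF2 had 31.7, 44.2 and 64.8 CPM in Veh and 31.3, 44.6 and 70.5 in sGC (0.13, SE 0.185). SERPINF1 had 12.9, 17.1 and 23.6 CPM in Veh and 7.37, 14.9 and 25.5 in sGC (-0.07, SE 0.212), with both the lowest and the highest library of F3 in sGC. SLC13A4 was nearly level, with 24.5, 30.02 and 38.97 CPM in Veh and 26.2, 31.3 and 34.9 in sGC (0.02, SE 0.0939).

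**Figure D2:**
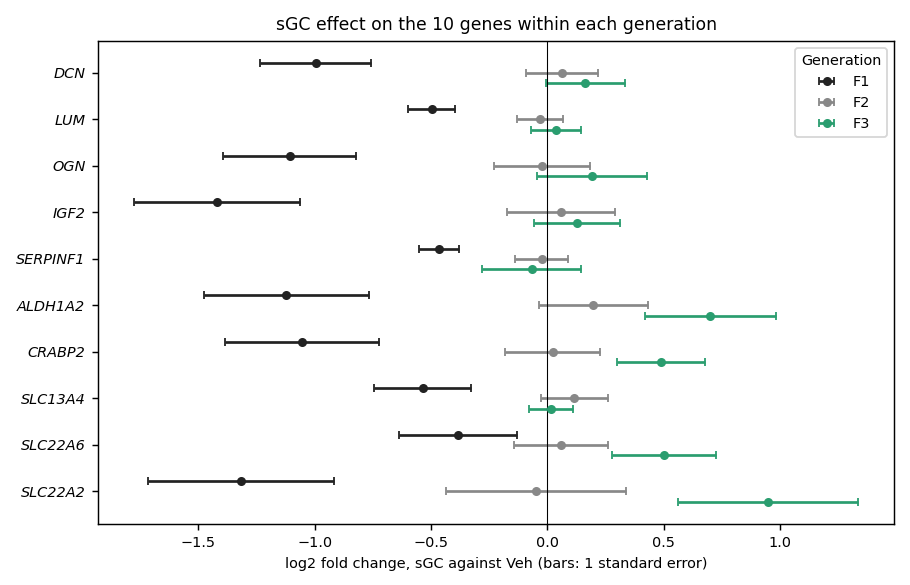
Log2 fold change of sGC against Veh for the 10 genes in F1 (black), F2 (grey) and F3 (green), with bars of 1 standard error derived from edgeR's quasi-likelihood test. All F1 points lie below 0, from -1.42 for IGF2 to -0.38 for SLC22A6, F2 points stay between -0.05 and 0.20, and F3 points reach 0.95 for SLC22A2.

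The difference between the generations in the sGC effect, taken as an interaction over all 36 libraries, was positive for all 10 genes between F3 and F1, with a median of 1.22 on the log2 scale. It was 2.26 (SE 0.626) for SLC22A2, 1.82 (SE 0.448) for ALDH1A2, 1.54 for CRABP2 (SE 0.370) and IGF2 (SE 0.411), and smallest for SERPINF1 at 0.39 (SE 0.243). None of the 10 and no gene at all (0.0%) passed an adjusted p of 0.05 in edgeR's quasi-likelihood test, where 1488 genes had an unadjusted p below 0.05. The likelihood ratio test called 57 genes, 4 of the 10 among them, and DESeq2 67 genes. Without F1 sGC replicate 4 the count in edgeR rose to 438 genes, and 7 of the 10 were called higher (1.61% of all genes). Without F3 Veh replicate 6 it was 67 genes and 1 of the 10, without F3 sGC replicate 6 it was 23 genes and none of the 10, and without libraries 32 to 36 it was 444 genes, with 6 of the 10 called higher (1.57% of all genes). The interaction of F2 with F1 was also positive for all 10 genes (median 1.07), with none of them among the 40 genes called (0.351%), and that of F3 with F2 was positive for 8 (median 0.15). Leaving out 1 library moved this last median from 0.05 (without F3 sGC replicate 2) to 0.31 (without F2 sGC replicate 6), with 6 genes positive at the fewest. In it no gene was called by edgeR (0.0%), by the likelihood ratio test or by DESeq2, and 1026 genes had an unadjusted p below 0.05. The first 2 interactions share the F1 libraries. The list was chosen with the F1 contrast known, and ALDH1A2 and SLC22A2 also with their higher F3 levels known. These interactions and the counts of calls in them describe the genes and are no evidence apart from that choice.

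Among Veh animals alone, all 10 genes were lower in F3 than in F1 (median log2 fold change -0.37), and 9 of 10, all but SLC13A4, were lower in F2 than in F1 (median -0.24). Without F1 Veh replicate 2 these medians were -0.23 and -0.11. IGF2 (log2 fold change -0.71, SE 0.273) and SERPINF1 (-0.31, SE 0.122) were called lower in F2 than in F1 by edgeR's quasi-likelihood test over the 18 Veh libraries, where 47.0% of all genes were called in either direction. That is 2 of 10, a smaller share than among all genes. Leaving out Veh replicate 2 or 5 of F1, or replicate 3 of F2, left none of the 10 called, and leaving out Veh replicate 4 of F1 gave 3. None was called between F3 and F1 (0.0177% of all genes) or between F3 and F2 (40.0%). Without F3 Veh replicate 1, 1 of the 10 was called between F3 and F2. No gene of the 10 had groups without overlap in any of the 3 contrasts, where 27.2% of all genes did so between F2 and F1, 0.584% between F3 and F1 and 21.1% between F3 and F2. The F1 Veh libraries also stand in the F1 contrast that chose the list, so these values are not independent of it.

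Set in order over the 6 groups, F1 Veh had the highest mean for 8 of the 10 genes and F1 sGC the lowest for 9. CRABP2 was highest in F3 sGC, SLC13A4 in F2 sGC, and SLC22A6 was lowest in F3 Veh. The highest mean exceeded the lowest by 1.38-fold for SERPINF1, 1.41-fold for LUM and up to 2.64-fold for IGF2. These orders set levels scaled separately in 3 tables side by side. Neighbours in a sorted order are close by construction, so small steps between them cannot show that groups did not differ. Of the 50 steps between neighbours in the 10 orders, 44 were no larger than the greater SD of the pair. The other 6 steps were all the step down to F1 sGC, for CRABP2, DCN, IGF2, LUM, OGN and SLC13A4. It was widest for IGF2, from 40.3 ± 8.03 in F2 Veh (SD, n = 6) to 24.1 ± 7.61 CPM in F1 sGC (SD, n = 5). The list was chosen with the F1 contrast known. The places of F1 Veh and F1 sGC in the orders, and these steps, are therefore not independent of it.

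The 10 genes varied together between animals of the same group. With the mean of each of the 6 groups taken off the log2 CPM, all 45 pairs were positively correlated over the 36 libraries. The mean Pearson r over the pairs was 0.555, 26 pairs were above 0.5, and r ran from 0.163 (LUM with SLC13A4) to 0.854 (OGN with CRABP2). These values are a description: the genes of a library share its RNA, its depth and its dissection, and the list was written as genes of 1 cell type. The mean r was 0.450 in the 18 Veh libraries and 0.639 in the 18 sGC libraries, 0.480 within F1, 0.633 within F2 and 0.563 within F3, and 0.515 without libraries 32 to 36. Within F1 40 of the 45 pairs were positive (lowest r -0.295, n = 11 libraries), and within Veh 43 (lowest r -0.103, n = 18). Leaving out any 1 library kept it between 0.519 (without F2 sGC replicate 3) and 0.591 (without F1 Veh replicate 5).

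A group of 5 genes followed each other most closely: DCN and OGN, the retinoid genes ALDH1A2 and CRABP2, and the cation transporter SLC22A2. Their 10 pairs had r between 0.721 and 0.854, with a median of 0.815. Between these genes and the other 5 the median was 0.515 (25 pairs, 0.322 to 0.669), and among the other 5 it was 0.414 (10 pairs). This group was picked after the correlations were seen. Apart from it, IGF2 and the sulphate transporter SLC13A4 formed the closest pair (r = 0.827). OGN was nearest to the mean of the other 9 genes (r = 0.893) and SLC13A4 farthest from it (r = 0.523). LUM, although a proteoglycan like DCN and OGN and the next entry to DCN in the RefSeq annotation of assembly mCavPor4.1, had r = 0.422 with DCN and 0.63 with OGN.

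**Figure D3:**
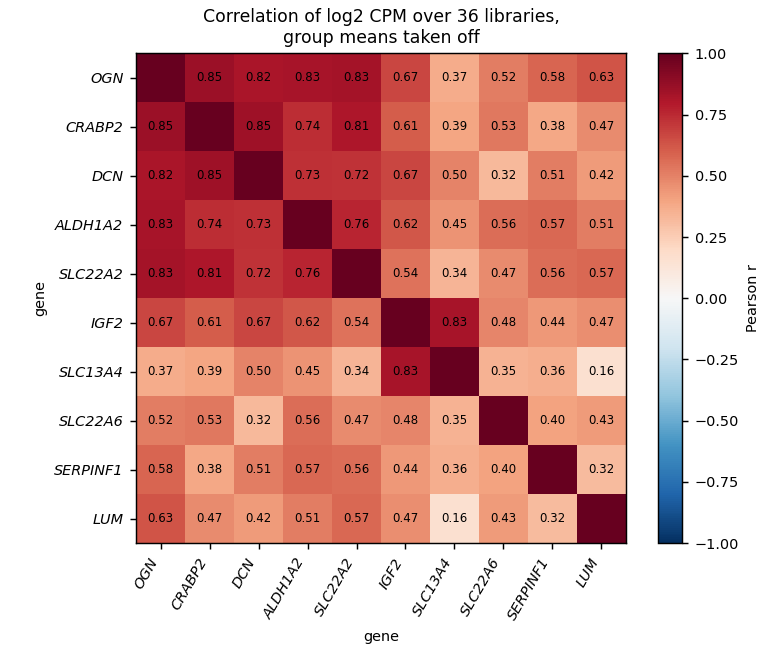
Pearson r between each pair of the 10 genes over 36 libraries, from log2 CPM with the mean of each of the 6 groups taken off (colour scale from -1 to 1). All 45 pairs are above 0, with a block of high values for OGN, CRABP2, DCN, ALDH1A2 and SLC22A2 and a separate close pair, IGF2 with SLC13A4 (0.83).

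The shared variation showed in single libraries. All 10 genes lay above their group mean in 4 libraries, F1 Veh replicate 2, F2 sGC replicate 6 and F3 sGC replicates 2 and 6. No gene did in 6 libraries, F1 Veh replicates 3 and 4, F2 Veh replicate 3, F2 sGC replicate 3 and F3 sGC replicates 5 and 7. Averaged over the 10 genes, the deviation from the group mean ran from -0.67 in F2 sGC replicate 3 to 0.55 in F1 sGC replicate 4 on the log2 scale. In 24 of the 36 libraries, 8 or more or 2 or fewer of the 10 genes were above the group mean. Libraries with a positive mean deviation were found in both groups and in each generation. The 6 highest were F1 sGC replicate 4, F1 Veh replicate 2, F2 sGC replicate 6 and F3 sGC replicates 6, 2 and 3. Of the 5 libraries numbered 32 to 36, 3 were among them. A high deviation is not a high level: F1 sGC replicate 4 had a sum of 134 CPM, below the F1 Veh median of 172.8 CPM. The mean deviation had r = 0.021 with the number of reads counted (n = 36).

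**Figure D4:**
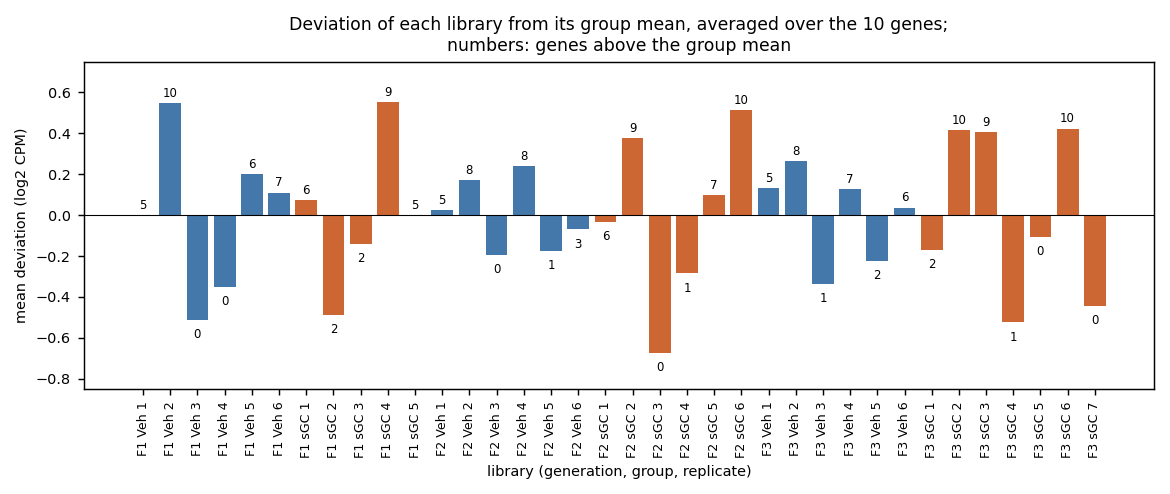
Mean deviation of the 10 genes from their group mean in each library (log2 CPM, blue Veh, orange sGC), with the number of genes above the group mean printed at each bar. The bars run from -0.67 (F2 sGC replicate 3) to 0.55 (F1 sGC replicate 4), and most libraries have nearly all genes on 1 side.

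Variation between animals of a group was large for these genes beside the rest of the transcriptome. The biological coefficient of variation that edgeR estimated for each gene, the spread between libraries beyond counting error, was 5.97% at the median of 11387 genes. It was 10.02% for LUM, 19.3% for SLC13A4, 19.9% for SERPINF1, 24.7% for DCN, 29.9% for OGN, 30.4% for ALDH1A2, 33.5% for IGF2 and 41.6% for SLC22A2. LUM was above 81.6% of all genes in this measure and SLC22A2 above 99.7%. For the genes with few reads, counting error added to it: a library of F1 sGC had a counting error of 37.3% of the level for SLC22A2 and 26.2% for ALDH1A2, against 5.06% for IGF2.

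Over all other genes tested, 11377 in number, the 10 whose residuals followed the mean of the list most closely (n = 36 libraries) were CYP1B1 (r = 0.874), COLEC12 (0.853), MFAP4 (0.844), COL1A2 (0.822), PI16 (0.815), IGFBP5 (0.811), TSPAN11 (0.807), PTGDS (0.806), BMP6 (0.795) and AEBP1 (0.788). The median of all other genes was -0.017, and 95% of them lay between -0.531 and 0.479. Several of the 10 are known from fibroblasts or their matrix: COL1A2 is a chain of type I collagen, MFAP4 a protein of elastic fibres, AEBP1 a protein that binds collagen, and PTGDS the prostaglandin D synthase that is abundant in the meninges. Of 34 collagen genes, 10 were above 0.479, with a median r of 0.180.

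Other markers of meninges and fibroblasts, 20 genes tested over all libraries, had a median r of 0.426 with the list, and 8 of them (SLC6A20, SLC47A1, FOXC2, PTGDS, ISLR, MFAP4, EFEMP1 and TGFBI) were above 0.479. PTGDS and SPP1 (r = -0.103) had the most reads of this list, with means of 743 and 83.6 CPM over all libraries. FOXC1, FOXD1, ZIC1 and SLC6A13 were not in the tables used here. In F1 14 of 19 such genes tested were lower in sGC (median log2 fold change -0.28), and none was called by edgeR in any generation. Their summed level, most of it PTGDS, was 973, 1170.4 and 1394 CPM (lowest, median and highest) in the Veh libraries of F1. In the sGC libraries of F1 it was 853, 943 and 1321 CPM. The sGC median lay below the lowest Veh library and the highest sGC library inside the Veh range. Between the Veh groups of F2 and F1, 11 of 19 were called, 10 of them lower in F2, beside the 47.0% of all genes given above.

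**Figure D5:**
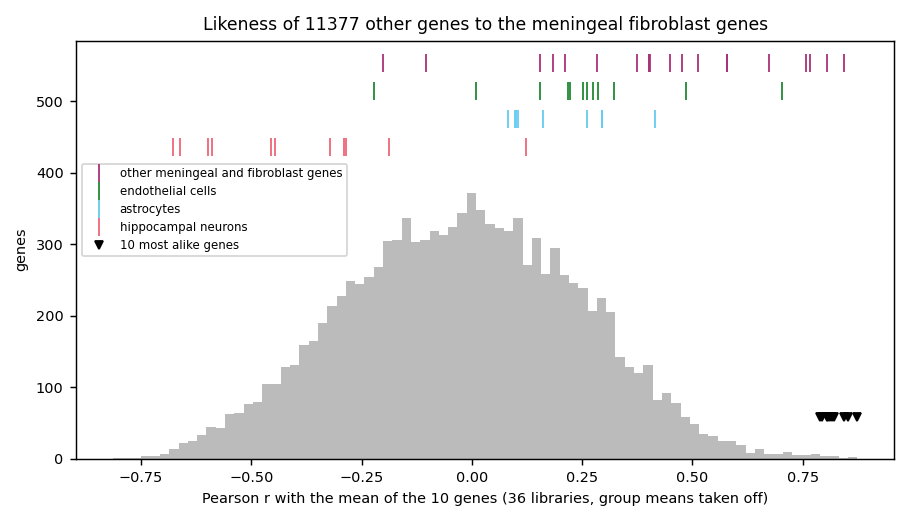
Distribution of Pearson r between each of 11377 other genes and the mean of the 10 genes over 36 libraries, group means taken off (grey, number of genes). Ticks above it show marker genes of other meningeal and fibroblast cells, endothelium, astrocytes and neurons, and triangles the 10 most alike genes, which lie between 0.788 and 0.874, while 10 of 11 neuronal genes lie below 0.

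Other genes of the pathways that the 10 belong to were not called within any generation, and some followed the list between libraries, with r above 0.479 as in 285 of all 11377 other genes. Most did not follow it closely. The median r was 0.304 for other proteoglycans, 0.225 for retinoid genes, 0.088 for the growth factor axis and 0.138 for other transporters. In the same order, the lowest r of each list was 0.091, -0.315, -0.422 and -0.510. Of the other small leucine-rich proteoglycans (BGN, PRELP and 5 more), 5 of 6 tested were lower in F1 (median -0.08) and none was called in any generation, although biglycan (BGN) followed the list closely (r = 0.782). In the retinoid pathway 10 of 12 genes were lower in F1 (median -0.14), 8 of 12 higher in F3 (median 0.09), and none was called. RXRB and RBP4 had its highest CPM (r = -0.287 and 0.248), and CYP26B1, which degrades retinoic acid, was the 1 gene of 12 above 0.479. The insulin-like growth factor axis, 15 genes with HTRA1 and INSR highest in CPM, had 8 higher and 7 lower in F1 and none called. Its binding proteins IGFBP2, IGFBP5, IGFBP6 and IGFBP7 were above 0.479. Of 14 other transporters of organic ions and sulphate, with SLC22A23 and SLC29A4 highest in CPM, 9 were lower in F1 and none was called, and SLC22A8, SLC26A2 and SLC13A3 were above 0.479.

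Markers of other cells that a hippocampal sample may hold are given beside the list. Choroid plexus was represented by 6 genes over all libraries, with TRPM3 and KL highest in CPM, and AQP1, CLIC6, OTX2, PRLR and CALML4 were in none of the tables used here. Of these 6, 5 were lower in F1 (median -0.37) and none was called, and MSX1 and SOSTDC1 were above 0.479. Their summed level in F1 was 99.8, 114 and 153 CPM (lowest, median and highest) in Veh and 109, 129 and 132 CPM in sGC. The sums of the 2 groups overlapped, with the higher median in sGC. Most of the sum was TRPM3, with a mean of 90.8 CPM over all libraries. The 5 genes with lower means in F1 sGC were KL, FOLR1, CLDN1, SOSTDC1 and MSX1, and the sum says little about them. In F2 8 of 9 choroid plexus genes tested were higher in sGC (median 0.08) and in F3 6 of 8 lower (median -0.26), with none called. Their sums, over more genes than in F1, ran from 196.3 to 764 CPM in Veh and from 195 to 1026 CPM in sGC of F2, so single libraries stood far apart in them. Endothelial genes (12, median r = 0.257, FLT1 and VWF highest in CPM) had a median log2 fold change of 0.04 in F1 with none called. CDH5 (r = 0.704) and CLDN5 (r = 0.485) were above 0.479. Pericyte and smooth muscle genes (12, median r = 0.328, RGS5 and TAGLN highest in CPM) had a median log2 fold change of -0.01 in F1. DES (r = 0.505) and MYH11 (r = 0.489) were above 0.479. In F3 all 11 tested were higher, PDGFRB passing the threshold (log2 fold change 0.20, SE 0.0527, adjusted p = 0.0395 from edgeR). The part of vessels or choroid plexus in the levels of the 10 genes was not tested.

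Glial genes were only weakly related to the list: the median r was 0.161 for 9 astrocyte genes (SLC1A2 and SLC1A3 highest in CPM), 0.272 for 6 microglial genes (CSF1R and CX3CR1) and 0.109 for 6 oligodendrocyte genes (CNP and OLIG1). All of these genes had r above 0, where the median of all other genes was -0.017, and no gene of these 3 lists was above 0.479. All 9 astrocyte genes had higher means in sGC in F1 and in F3, with SLC4A4 called in F1 and SLC4A4, GLUL, S100B and SLC1A2 in F3. All 6 oligodendrocyte genes tested had lower means in sGC in F1 (median log2 fold change -0.20, none called), the direction of the 10 genes, and 4 of 6 higher means in F3. Their summed level in F1 was 1583, 1768 and 2134 CPM (lowest, median and highest) in Veh and 1469, 1501 and 1963 CPM in sGC. Microglial means were higher in sGC for 6 of 7 genes in F1 and 7 of 7 in F3, with none called. The part of glial cells in the levels of the 10 genes was not tested. Between libraries of a group, neuronal genes ran against the list, with r below 0 for 10 of 11 and a median of -0.446. Between the groups of F1 they did not: 9 of 11 had lower means in sGC (median log2 fold change -0.08, none called). Their summed level in F1 nevertheless had the higher median in sGC, 13509.9 against 12490.2 CPM in Veh. In F3 9 of 11 had lower means in sGC (median -0.09). SNAP25, a protein of synaptic vesicle fusion, had r = -0.678, and CAMK2A, the highest in CPM, -0.189. SNAP25 was the 1 neuronal gene called within a generation, lower in the sGC animals of F3 (log2 fold change -0.19, SE 0.0422, adjusted p = 0.0160 from edgeR).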

How the data were processed

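Raw counts of reads for each gene in each library were deposited by the authors, from poly(A) RNA sequenced as short single reads and, per the submitters' processing notes, aligned with TopHat2. The counting tool, genome build and strand setting for RNA are not given in the sources used here, so counts on overlapping genes may be shared. SKP1 in the F1 and F3 tables and GSTM2 in the F2 table occur more than 1 time once letter case is ignored, and the entries were kept apart. Columns with the authors' own comparisons, and the methylation tables, which hold only such comparisons, were not used. No column of another sample was present.

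Counts were analysed with R 4.3.3 and edgeR 4.0.16 (filterByExpr, TMM scaling, quasi-likelihood test over all genes, Benjamini-Hochberg adjustment at 0.05) within each generation, over the 18 Veh libraries and over all 36 libraries for interactions. Levels in CPM were scaled within each generation's table. Correlations used log2 CPM with a prior count of 2, over genes of all 3 tables. Error bars and ± values are SD between animals. Alternatives were edgeR's likelihood ratio test, DESeq2 1.42.0, RLE size factors, no filter, all libraries in 1 fit, a replicate block and leaving out libraries. The code was tested on simulated data with 200 changed genes.

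The 10 genes and the marker lists were chosen with earlier results of these data known. Of other genes, the text names the 10 most alike to the list, and of each marker list those called by edgeR within a generation and the 2 with the highest mean CPM. Genes named for an r above the range of most genes were chosen after their values were seen, and genes called only between Veh groups are given as counts. Same-numbered Veh and sGC animals came from separate mothers and did not deviate together (r -0.0724 to 0.295 in F1, -0.367 to 0.192 in F2 and -0.287 to 0.0202 in F3), so the numbers do not pair animals.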

Additional observations from a re-analysis of the deposited data

Results flagged for a closer look

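Among 66 groups of 5 to 7 libraries tested for 1 value far from the others (each gene and the summed level in each group), 5 had such a value, where chance gives about 1 in 20. Each was the highest of its group. In F1 Veh, SLC13A4 was at 64.2 CPM and SERPINF1 at 24.2 CPM in replicate 5, and CRABP2 at 8.25 CPM in replicate 2. ALDH1A2 was at 1.76 CPM in F1 sGC replicate 4. SLC22A2 was at 2.37 CPM in F2 sGC replicate 6. Replicate 4 of F1 sGC is library 35 and replicate 6 of F2 sGC is library 33. The 5 values came from 4 libraries, 3 of them among those with the highest mean deviation of the 10 genes, and why these libraries stood high was not tested.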

How the results depend on the processing

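Each of the 10 genes had a lower mean in F1 sGC under each alternative run. Their F1 median log2 fold change lay between -1.25 and -0.76 and their mean correlation between 0.450 and 0.639, and the number of genes called moved more. Shares are of all genes tested. In F1, with 2.08% of genes and 3 of the 10 called, the likelihood ratio test gave 5.26% and 8 of the 10, DESeq2 5.78% and 5, the fit of all 36 libraries 7.39% and 6, and the fit without libraries 32 to 36 0.845%, with 6 of the 10 not overlapping. Without Veh replicates 2 and 5, a choice made after seeing the data, it was 0.229% and 0. With 1 library left out, F1 gave 0.49% (without sGC replicate 5) to 3.0% (without sGC replicate 4), 1 to 7 of the 10 and 2 to 6 without overlap. In F2 the likelihood ratio test gave 0.0526%, DESeq2 0.105% and leaving out 1 library 0 to 0.00875%. In F3 DESeq2 gave 8.31%, the fit of all libraries 3.17%, the fit without libraries 32 to 36 2.79%, and leaving out 1 library 2.54% to 5.63%. For the difference of F2 from F1 the likelihood ratio test gave 1.48% and 2 of the 10, DESeq2 2.37% and 2, the fit without libraries 32 to 36 0.937%, and leaving out 1 library 0 to 2.07% (without F2 sGC replicate 6). For F3 from F1 these were 0.501% and 4 of the 10, 0.588% and 0, 3.89% and 6, and 0 to 3.84% with 0 to 7. Between Veh groups, F2 and F1 had 1 of the 10 called by DESeq2 and 0 to 3 (0 to 1 without overlap) with 1 library left out, F3 and F1 had 0.0884% called by the likelihood ratio test, 0.115% by DESeq2 and 0 to 0.0618% with 1 library left out (0 to 1 of the 10 without overlap), and F3 and F2 had 1 of the 10 by the likelihood ratio test and 0 to 1. The summed level in F2, as a mean of standardized levels, differed by -0.0247 between sGC and Veh. The causes were not tested. A replicate block, although the numbers do not pair animals, gave 0.633% and 1 of the 10 in F1, 1.51% in F3 and 0.0351% for F2 from F1, and changed no other call of the 10. Precision is limited by 5 to 7 animals a group and, for SLC22A2 and ALDH1A2, by few reads.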
